A study of Sus scrofa with 36 samples.

Results

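The antioxidant and glutathione defence genes are 51 listed genes whose products remove superoxide and peroxides, repair oxidised thiols, make and use glutathione, or bind metals. The members were chosen by name. A probe was found for 50 of the 51 genes, MT2A being left without one, and 1 probe stood for each gene, that with the highest mean log2 value over all arrays. All 50 passed the filter on low signals, among 45943 probes tested of the 60305 on the array. The chosen probe was well above background on all 36 arrays for 49 of the 50, and TXN2 was above it on 32.

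Adrenal glands of 36 castrated male growing pigs were measured, with 1 array per pig. The pigs were Creole, Large White or the F1 cross of these breeds, 12 of each. In each breed, 6 pigs were slaughtered at 24 °C (thermoneutral, TN) and 6 after exposure to heat (heat stress, HS). The labels give 5 days of exposure, while by the study's methods some HS pigs were slaughtered a day earlier, and the labels do not say which. The HS temperature is 30 °C in the sample tags and 32 °C in the growth protocol. The labels name no transgene, drug or allele in any group. All TN pigs were slaughtered before the temperature rise and all HS pigs after it, so temperature, age and day of slaughter cannot be told apart. By the study's methods each breed came from a few blocks of littermates that were split over TN and HS, so every group holds littermates. Litter, sire and pen are not in the sample labels, and the p-values take the pigs of a breed as independent, which they were not. Tissue of the gland was ground, markers of both cortex and medulla were above background, and a lower signal from fewer cells of a type cannot be told apart from less RNA per cell.

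Superoxide dismutases turn superoxide into hydrogen peroxide, which catalase, glutathione peroxidases and peroxiredoxins then remove. Thioredoxin, glutaredoxin and their reductases return the oxidised enzymes to their working form, and glutathione transferases couple glutathione to reactive compounds. Steroid synthesis in the adrenal cortex leaks electrons from mitochondrial cytochromes P450, and these genes are known for protecting steroid-producing cells. NFE2L2 (NRF2), held back by KEAP1, is the transcription factor that switches on many of them under oxidative or electrophilic stress.

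The results rest on oligonucleotide probes, and some genes had several that disagreed, so the sequences of the probes behind the main results are given 5′ to 3′ as the deposited probe table holds them. The brightest probes of GLRX, which shares no run of 15 bases with its other probes, and of PRDX1, which shares 45 with its second probe, are shown whole.

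GLRX, brightest probe: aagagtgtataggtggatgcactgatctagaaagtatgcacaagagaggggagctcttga
PRDX1, brightest probe: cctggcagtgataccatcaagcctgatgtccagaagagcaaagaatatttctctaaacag

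Stretches of 30 bases are shown for MGST2, the largest breed difference, measured by 1 probe alone, for MSRB2, and for the SRXN1 probes, of which the first carries the only HS call and the second does not pass the test.

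MGST2, only probe, first 30 bases: atatctggacctcaatattgccaagaaact
MSRB2, brightest probe, first 30 bases: gcaactaactttcaatgggcgtttgttaaa
SRXN1, brightest probe, first 30 bases: tctgtgaaaatggggtcgcttgtgtgctct
SRXN1, second probe, first 30 bases: tggaactggcacactgcctcctaaataaaa

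The 3 MT1A probes hold a common run of 12 bases, in capitals, and the longest run shared by the first and second is 30 bases. The third differed from both in its breed difference.

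MT1A, brightest probe: ctttttctgTGAAATATGTGAgttgtaata
MT1A, second probe: cctttttctTGAAATATGTGAgttgtaata
MT1A, the third probe: cccttcctaTGAAATATGTGAatgataata

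Breed differed for 8 of the 50 members in the F test over the 3 breeds, beside 10.4% of all probes tested, and for 8 in the contrast of Large White with Creole, beside 11.3%. The members' share was 16% in each. In that contrast 5 members were higher in Large White (SOD2, PRDX5, MSRB2, GLRX and MT1A) and 3 were lower (PRDX1, MGST2 and NQO1). SOD2 was lower on its second-brightest probe (-0.22, adjusted p = 0.0324), which would make the split 4 and 4. The background was 5.89% higher and 5.38% lower. At an unadjusted p under 0.05 the F test took 13 members, beside 24.5% of all probes, and the contrast took 15, beside 24.2%. The median of the members' absolute log2 differences was 0.079, the same as over all probes tested. Both tests called 7 members, GSR was called in the F test only and NQO1 in the contrast only.

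**Figure D1:**
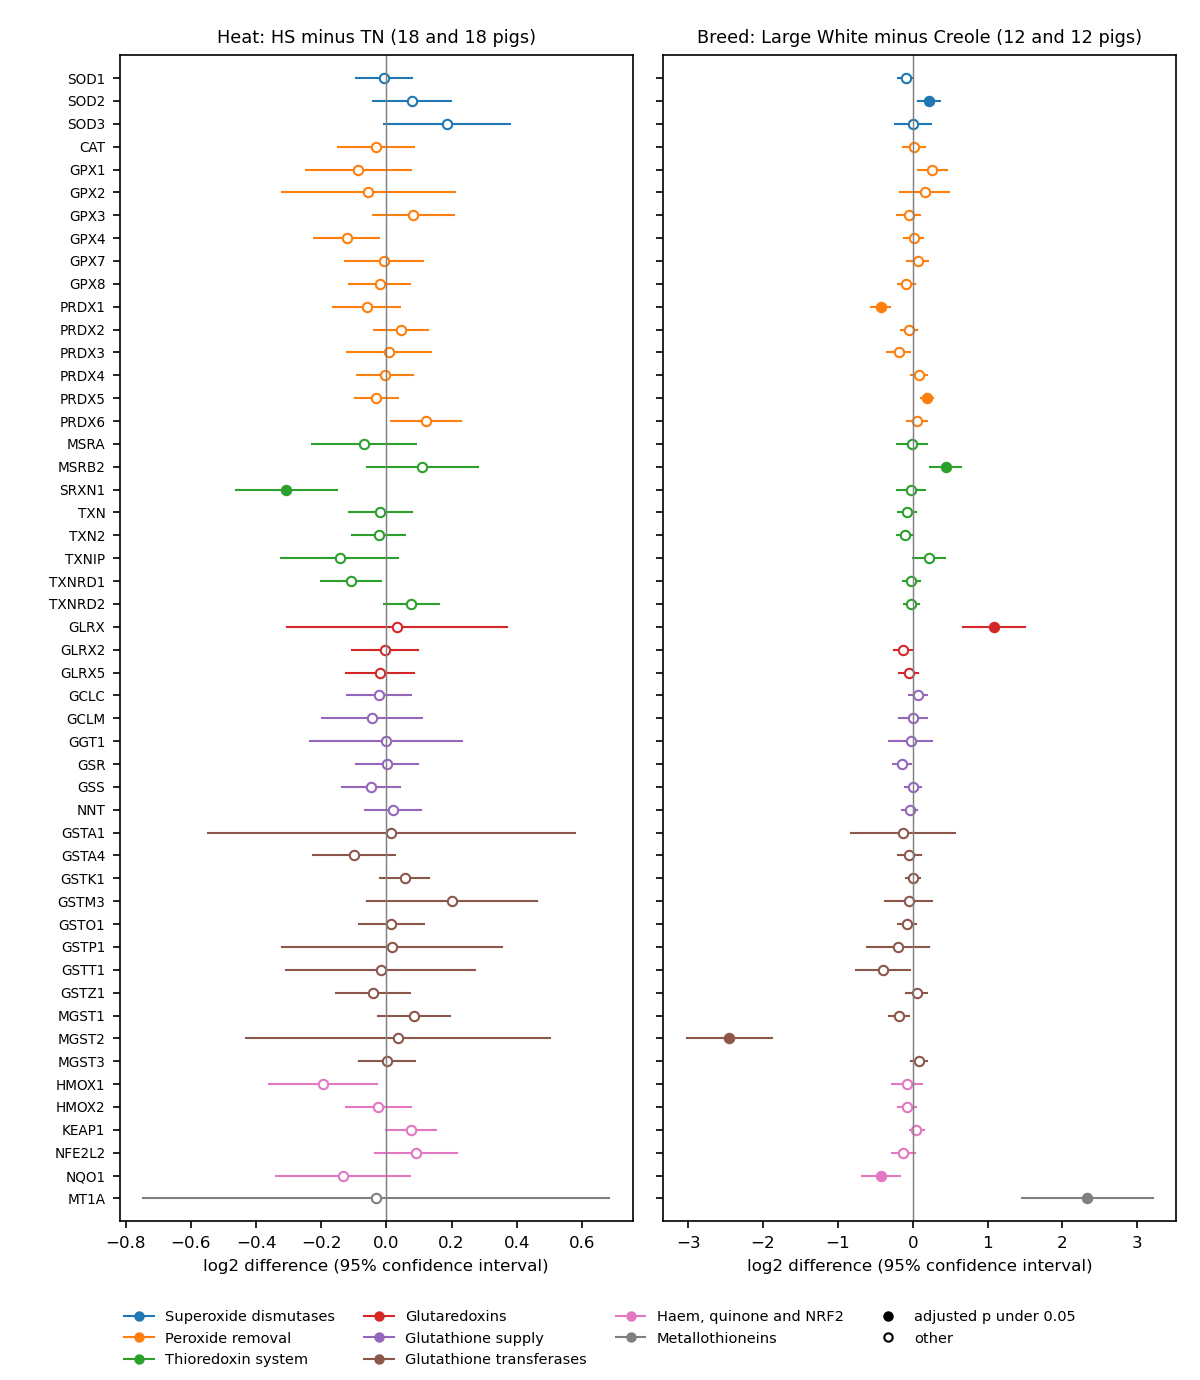
Log2 difference of each of the 50 members with its 95% confidence interval (x axis), ordered and coloured by role, for HS minus TN and for Large White minus Creole; filled points have an adjusted p under 0.05. SRXN1 alone is filled for HS minus TN, at -0.31, and 8 members are filled for breed, from -2.45 (MGST2) to 2.33 (MT1A).

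Of the 3 superoxide dismutases, SOD2 passed the test between breeds. SOD2 encodes the manganese enzyme of the mitochondrial matrix and lies on chromosome 1 (chr1:7679352-7689564, RefSeq, Sscrofa11.1, as are the other positions). Its log2 intensity was lowest 13.15, median 13.34 and highest 13.78 in Creole pigs, 13.19, 13.59 and 13.84 in Large White pigs, and 12.92, 13.31 and 13.54 in cross pigs. The breeds overlapped over most of their range, with 2 Large White pigs above every Creole pig and 2 Creole pigs below every Large White pig. Large White minus Creole was 0.22 ± 0.07 (SE; limma, adjusted p = 0.0394), and the F test gave an adjusted p of 0.011. The copper-zinc enzymes did not pass, with -0.10 for cytosolic SOD1 (adjusted p = 0.258) and 0.00 for extracellular SOD3 (adjusted p = 0.994).

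The 9 tested probes of SOD2 did not agree. They ran from -0.22 to 1.68, with 6 of the 9 below 0, and 4 passed the test in the contrast: the brightest at 0.22, the second-brightest at -0.22, another of the same sequence as the brightest at 0.26, and the eighth in brightness at 1.68. The second-brightest read 13.19 to 13.67 in Creole and 12.95 to 13.63 in Large White. The eighth read 7.79 to 11.27 in Creole and 8.21 to 11.83 in Large White, a range far wider than that of the brightest. The direction for SOD2 therefore depends on the probe, and the 3 shown here share no run of 15 bases. The call of the brightest probe was also lost on leaving out any of 15 of the 36 pigs.

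SOD2, brightest probe, first 30 bases: ggatatgcatggtacatgctaaaaatccta
SOD2, second probe, first 30 bases: gaaggattttttgactgaatcggcagtgcc
SOD2, eighth probe, first 30 bases: gaaggagatggtagtacctctgaatttttc

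Of the 13 members that remove peroxides, 2 peroxiredoxins passed between breeds, in opposite directions. PRDX1, the abundant cytosolic thioredoxin-dependent peroxidase (chr6:165847390-165859918), was lowest 14.64, median 14.89 and highest 15.15 in Creole pigs, 14.22, 14.48 and 14.69 in Large White pigs, and 14.47, 14.70 and 14.97 in cross pigs. In Creole, 11 of 12 pigs lay above every Large White pig. Large White was lower by a log2 difference of -0.42 ± 0.06 (adjusted p = 1.68e-05), and the second probe, of largely the same sequence, gave -0.43. PRDX5, a peroxiredoxin of mitochondria, peroxisomes and cytosol (chr2:7798672-7801955), was lowest 14.37, median 14.50 and highest 14.76 in Creole and 14.56, 14.72 and 14.84 in Large White. Cross pigs read 14.63 to 14.78, median 14.71. In Creole, 10 of 12 pigs lay below the Large White range. The difference was small but its spread was the narrowest of all members, at 0.19 ± 0.04 (adjusted p = 0.00109), and all 4 probes passed with 0.19 to 0.24. The first and second of them share 52 bases, and the other 2 have the same sequence.

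The other 11 of this role did not pass on their chosen probe. GPX1, the main cytosolic glutathione peroxidase, was nearest at 0.26 (adjusted p = 0.0751), and mitochondrial PRDX3 stood at -0.19 (adjusted p = 0.119). Catalase (CAT) differed by 0.02, with a 95% interval of -0.12 to 0.16. PRDX4, of the endoplasmic reticulum, gave 0.09 on its brightest probe, while 2 of its other probes passed at 0.14 and 0.16. The extracellular GPX3 gave -0.05 on its brightest probe, and 1 of its other 4 probes, which gave -0.21 to -0.11, passed.

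In the thioredoxin system 1 of 8 members passed. MSRB2, a mitochondrial reductase of methionine sulphoxide (chr10:51888828-51910725), was lowest 10.94, median 11.66 and highest 12.04 in Creole pigs, 11.79, 11.96 and 12.24 in Large White pigs, and 11.53, 12.01 and 12.27 in cross pigs. Large White pigs were close together, while 7 of 12 Creole pigs lay below all of them. The difference was 0.44 ± 0.10 (adjusted p = 0.00396), with 0.55 on the second probe, which shares no run of 15 bases with the first. Without slide 2 it was 0.35 and the call was lost (adjusted p = 0.0565). Thioredoxin (TXN), its reductase TXNRD1 and the thioredoxin-binding protein TXNIP did not pass on their chosen probes, at -0.08, -0.02 and 0.22. The other 5 probes of TXNRD1 gave -0.20 to -0.10, and 1 of them passed (-0.20, adjusted p = 0.0301).

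In the glutaredoxins, GLRX (chr2:102425580-102437851), which removes glutathione from protein thiols in the cytosol, passed. It was lowest 8.44, median 8.67 and highest 9.46 in Creole pigs, 8.40, 10.10 and 10.90 in Large White pigs, and 8.49, 9.03 and 9.80 in cross pigs. Of 12 Large White pigs, 10 lay above every Creole pig and 1 lay below every one. Large White was 2.12-fold higher (log2 1.08 ± 0.20, adjusted p = 3.98e-04). Among the other 4 probes, 3 passed with 1.06, 1.07 and 0.36, and the last gave 0.15 (adjusted p = 0.257). Mitochondrial GLRX5, of iron-sulphur cluster assembly, gave -0.05 on its chosen probe, while its second probe passed at 0.50 (adjusted p = 0.041).

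Glutathione supply held 6 members, and 0 passed in the contrast on their chosen probes. GSS, which joins glycine on to make glutathione, gave 0.01 on its brightest probe, while the dimmest of its 4 probes passed in the contrast (-0.24, adjusted p = 0.0224) and in the F test (adjusted p = 0.0413). GSR, the reductase that regenerates reduced glutathione (chr15:54382564-54433989), was called by the F test (adjusted p = 0.0142). It was lowest 8.87, median 9.07 and highest 9.25 in Creole pigs, 8.65, 8.95 and 9.06 in Large White pigs, and 8.44, 8.88 and 9 in cross pigs. The breeds overlapped: 6 of 12 Creole pigs lay above the Large White range, and 6 of 12 cross pigs below the Creole range. The second probe did not pass the F test (adjusted p = 0.475). The subunits of the rate-limiting enzyme of glutathione synthesis differed by 0.07 (GCLC, adjusted p = 0.501) and 0.00 (GCLM, adjusted p = 0.988).

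Among the 11 glutathione transferases the largest breed difference of all members was that of MGST2, a membrane-bound enzyme that also conjugates leukotriene A4 (chr8:87318180-87394563). It was lowest 11.91, median 12.70 and highest 12.88 in Creole pigs, 9.30, 9.97 and 11.80 in Large White pigs, and 9.76, 11.97 and 12.53 in cross pigs. The parental breeds did not overlap, which held for 1 of the 50 members and for 0.250% of all probes tested. Large White was 5.46-fold lower (log2 -2.45 ± 0.28, 95% interval -3.02 to -1.88, adjusted p = 3.03e-07). MGST2 had 1 probe, so no other could be set beside it. Whether the breeds differ in sequence under that probe was not tested. The highest Large White pig, at TN, stood alone at 11.80 with the next in its group at 9.99. In the cross, 7 of 12 pigs lay within the Creole range and 5 below it.

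MGST1, the related microsomal transferase, was not called on its chosen probe (-0.18 ± 0.07, adjusted p = 0.0746), but 7 of its other 8 probes were, all 8 between -0.50 and -0.37. The chosen probe shares no run of 15 bases with them on either strand. The second and the third probe, shown because they carry almost the same sequence and both read lower in Large White, share the 45 bases in capitals.

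MGST1, second probe: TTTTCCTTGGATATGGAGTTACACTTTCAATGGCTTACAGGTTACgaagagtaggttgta
MGST1, the third probe: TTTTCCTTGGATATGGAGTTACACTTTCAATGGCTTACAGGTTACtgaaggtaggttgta

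GSTT1, which acts on small halogenated compounds, stood at -0.40 (adjusted p = 0.151), and the very bright GSTA1 at -0.13 (95% interval -0.82 to 0.56). The GSTA1 probe was matched to a RefSeq transcript that another probe carries under the name GSTA2, so these near copies may share signal, as may genes of the GSTT and metallothionein families.

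Of the 5 haem, quinone and NRF2 members, NQO1 passed in the contrast. NQO1, a quinone reductase and classical NRF2 target (chr6:17292962-17302593), was lowest 8.80, median 9.43 and highest 9.89 in Creole pigs, 8.55, 9.10 and 9.53 in Large White pigs, and 8.71, 9.23 and 9.51 in cross pigs. The ranges overlapped, with 5 Creole pigs above the Large White range and 4 Large White pigs below the Creole range. Large White was lower, at -0.43 ± 0.12 (adjusted p = 0.0202), and the F test gave 0.0543. The call of the contrast was lost without slide 3, 4 or 5 (adjusted p = 0.065, 0.182 and 0.0944). The second and the third probe gave -0.44 and -0.53, and the fourth, on the opposite strand to the third, -0.11. NFE2L2 itself and KEAP1 stood at -0.13 (adjusted p = 0.32) and 0.05 (adjusted p = 0.563), and the haem oxygenases HMOX1 and HMOX2 at -0.08 for both.

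MT1A, a cysteine-rich protein that binds zinc and copper (chr6:18672016-18673673), was the widest of the members within groups. It was lowest 8.67, median 9.79 and highest 13.36 in Creole pigs, 11.72, 12.98 and 13.77 in Large White pigs, and 11.75, 12.52 and 14.01 in cross pigs. In Creole, 10 of 12 pigs lay below the Large White range and 2 within it. Large White was 5.03-fold higher (log2 2.33 ± 0.43, adjusted p = 3.29e-04). The second probe gave 2.30, while the third, dim at 5.24 to 9.41, gave -0.67 (adjusted p = 0.113). The mean of the 3 probes gave 1.32, past the threshold.

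**Figure D2:**
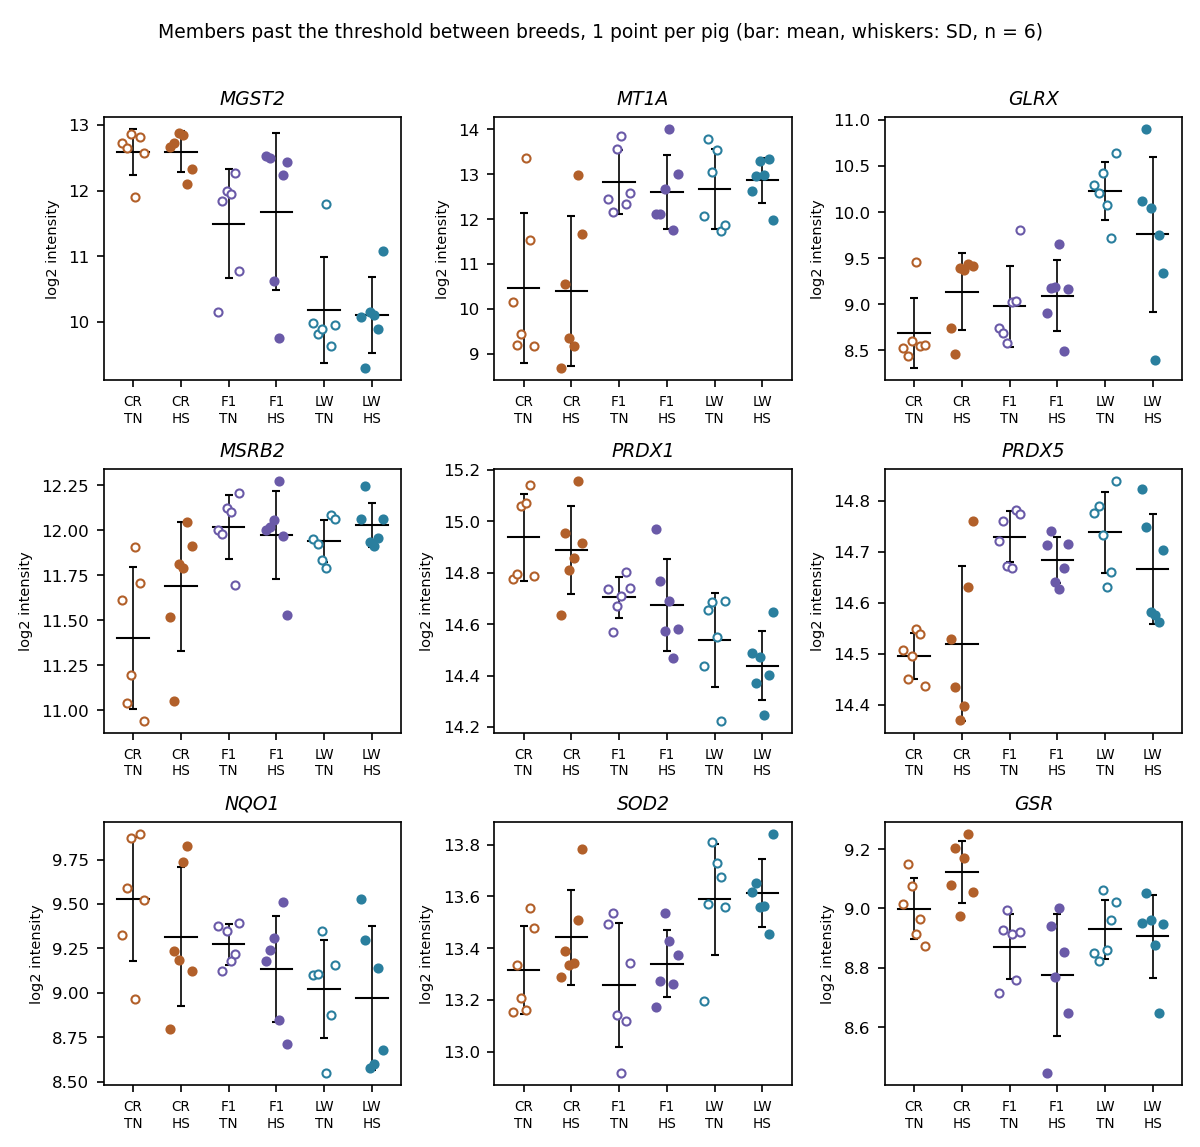
Log2 intensity (y axis) of the 9 members past the threshold between breeds, 1 point per pig in each of the 6 groups (CR, Creole; LW, Large White; F1, the cross; open points TN, filled HS), with mean and SD (n = 6). MGST2 separates Creole (11.91 or more) from Large White (11.80 or less), and the other 8 overlap.

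**Figure D3:**
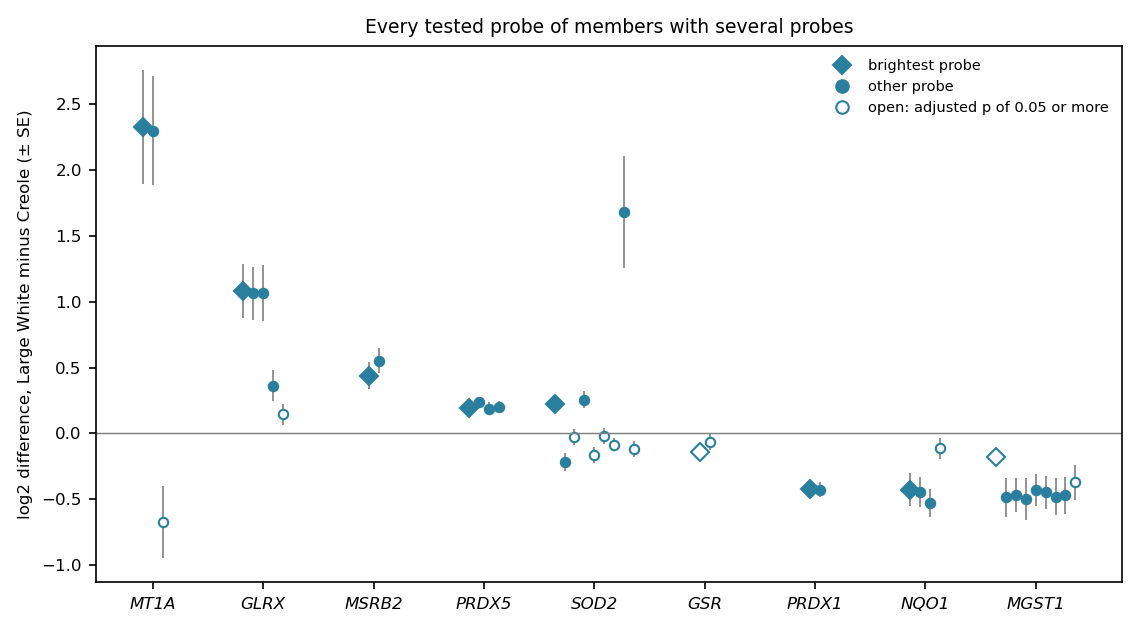
Log2 difference of Large White minus Creole with its SE (y axis) for every tested probe of 9 members with several probes, the brightest as a diamond and filled symbols past the threshold. The probes of PRDX5 lie together at 0.19 to 0.24, and those of SOD2 run from -0.22 to 1.68.

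In the 4 slides where the contrast could be estimated within the slide, every slide had the direction of the whole for GLRX (0.35 to 1.78), MGST2 (-2.99 to -1.73), MSRB2 (0.25 to 0.72), MT1A (0.88 to 2.84), PRDX1 (-0.69 to -0.25), PRDX5 (0.14 to 0.31) and SOD2 (0.12 to 0.43). NQO1 was lower in 3 of the 4 slides, with a range of -0.95 to 0.07. These members had been called on the same arrays, so the agreement within slides is no separate support. KEAP1, GPX1 and GSTT1, which were not called, also kept their direction in all 4 slides.

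Some markers of other cell types moved with breed. In Large White, 4 of 7 tested medulla genes were higher, among them SCG2 at 1.03 and CHGB at 0.53, and 4 of 6 adipocyte genes were lower, among them ADIPOQ at -1.62 and FABP4 at -1.33. All 7 and all 6 were above background on every array. The summed medulla signal (log2) was 19.03 to 19.46 in Creole and 19.06 to 19.65 in Large White, and the summed adipocyte signal 12.26 to 13.41 and 11.75 to 12.41. Of 9 tested cortex genes, which were also above background on every array, 2 were lower (HSD3B1 and STAR). In the other lists, S100A12 (1 of 3 neutrophil genes, -0.99) and CSF1R (1 of 6 macrophage genes, -0.29) were lower, and KDR (1 of 5 endothelium genes, 0.68) and CD3D (1 of 5 T cell genes, 0.58) were higher. Over all probes tested 11.3% were called. The list medians were -0.26 (neutrophil), 0.116 (macrophage), -0.047 (endothelium) and 0.415 (T cell). For macrophage and endothelium the median had the opposite sign to the called gene. The part of these 4 genes and of the cortex genes in the members' differences was not tested.

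With both summed levels added as covariates, chosen after seeing the data, the contrast called 2 members, MGST2 (-1.92, adjusted p = 0.0181) and GSR, in place of 8, and the F test called 4. Over all probes the contrast fell to 720 calls from 5178. GLRX, MT1A, PRDX5 and MSRB2 kept their size, at 1.12, 2.28, 0.21 and 0.48, but with adjusted p of 0.0817, 0.1, 0.093 and 0.158. PRDX1, NQO1 and SOD2 moved to -0.32, -0.36 and 0.10, with adjusted p of 0.101, 0.456 and 0.78.

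**Figure D4:**
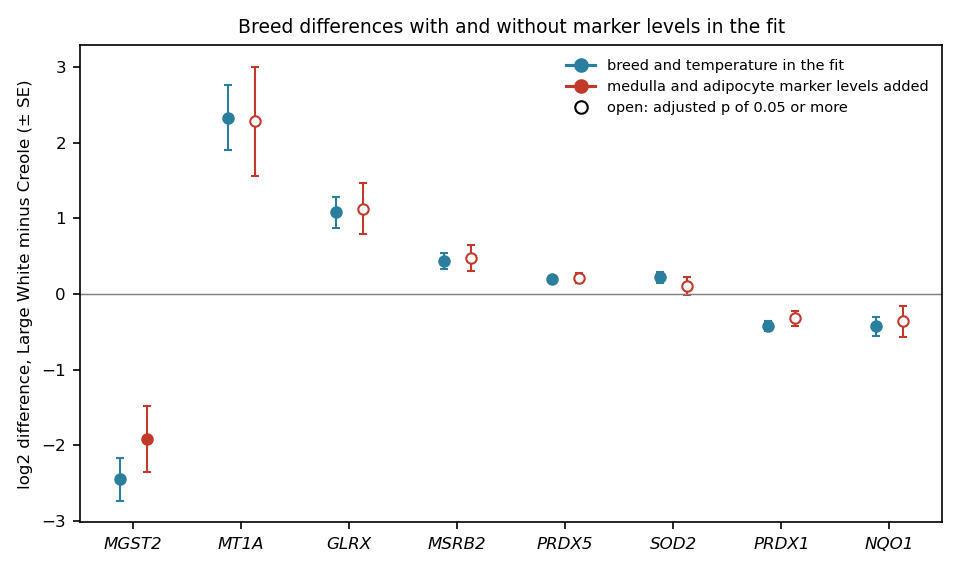
Log2 difference of Large White minus Creole with its SE (y axis) for members called between breeds, without and with the medulla and adipocyte levels in the fit; open points have an adjusted p of 0.05 or more. With the levels added MGST2 stays filled at -1.92, and MT1A opens at 2.28.

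The cross was set against the mean of its parents, and 0 of the 50 members passed, beside 0.409% of all probes tested. At an unadjusted p under 0.05 there were 9, beside 11.0%. The nearest was GSR, at -0.17 (95% interval -0.27 to -0.07, adjusted p = 0.132), with SOD2 at -0.19 (adjusted p = 0.188) and PRDX5 at 0.10 (adjusted p = 0.205). MT1A stood at 1.12 above the parental mean, with a wide interval of 0.36 to 1.88 (adjusted p = 0.196). The mean of the cross lay between those of the parents for GLRX, MGST2, MT1A, NQO1 and PRDX1, and below both for GSR and SOD2. On the second-brightest SOD2 probe the cross stood at 0.023 against the parental mean, so its direction depends on the probe. For MSRB2, PRDX5 and MT1A the cross mean differed from the Large White mean by less than the SE of Large White minus Creole. For GLRX the cross mean differed from the Creole mean by less than that SE. PRDX1 and NQO1 stood close to the middle, with intervals of -0.12 to 0.10 and -0.22 to 0.21.

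Between HS and TN, 1 of the 50 members passed the test, beside 0.886% of all probes tested: SRXN1 fell. The background was 0.390% higher and 0.496% lower. At an unadjusted p under 0.05 there were 5, 1 higher and 4 lower, beside 13.4%. The median log2 difference of the members was -0.01, against 0.00 over all probes. No member and 0% of all probes separated the HS from the TN pigs without overlap.

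SRXN1 encodes sulfiredoxin, which reactivates over-oxidised peroxiredoxins, and lies on chromosome 17 (chr17:34582377-34589308). It was lowest 10.55, median 10.78 and highest 11.26 at TN, and 10.16, 10.49 and 11.07 at HS. Of 18 HS pigs, 13 lay below every TN pig, and 17 lay below the TN mean of their own breed. HS was 1.24-fold lower (log2 -0.31 ± 0.08, 95% interval -0.46 to -0.15, adjusted p = 0.0414). In Creole the difference was -0.26, in Large White it was -0.23 and for the cross it was -0.42. It was lower in 4 of 4 slides, from -0.56 to -0.11. The same held for GPX1, GPX4, GSS, HMOX1 and TXNRD1, which did not pass. The second, much dimmer SRXN1 probe gave -0.10 (adjusted p = 0.554). The call sat close to the threshold: it was lost on leaving out any of 20 of the 36 pigs or any 1 of the 5 slides, with the adjusted p up to 0.0738 and 0.223, while the difference kept its direction.

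The next members by p did not pass. HMOX1, the inducible enzyme that degrades haem, was 12.69, 12.91 and 13.27 at TN (lowest, median, highest) and 12.13, 12.74 and 13.28 at HS, a difference of -0.20 ± 0.08 (adjusted p = 0.258). Its 5 probes gave -0.26 to -0.17. GPX4, which reduces lipid peroxides in membranes, was 14.53, 14.77 and 15.07 at TN and 14.29, 14.69 and 14.83 at HS, a difference of -0.12 ± 0.05 (adjusted p = 0.237). The ranges overlapped for both genes, with 8 HS pigs below every TN pig for HMOX1 and 3 for GPX4. TXNRD1, the cytosolic thioredoxin reductase, was 12.61, 13.01 and 13.15 at TN and 12.70, 12.86 and 13.09 at HS, and gave -0.11 ± 0.04 (adjusted p = 0.247). Its 6 tested probes ran from -0.118 to -0.004. PRDX6, which also reduces phospholipid peroxides, was 12.85, 13.11 and 13.27 at TN and 12.65, 13.24 and 13.52 at HS, and gave 0.12 ± 0.05 (adjusted p = 0.278), and its 9 probes gave 0.06 to 0.14. TXNIP, which stood further down by p, gave -0.14 (adjusted p = 0.513), and its 11 probes ran from -0.24 to -0.14. Below their own breed's TN mean lay 15 of 18 HS pigs for GPX4, 14 for TXNRD1, 13 for TXNIP and 12 for HMOX1, while 15 lay above it for PRDX6.

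**Figure D5:**
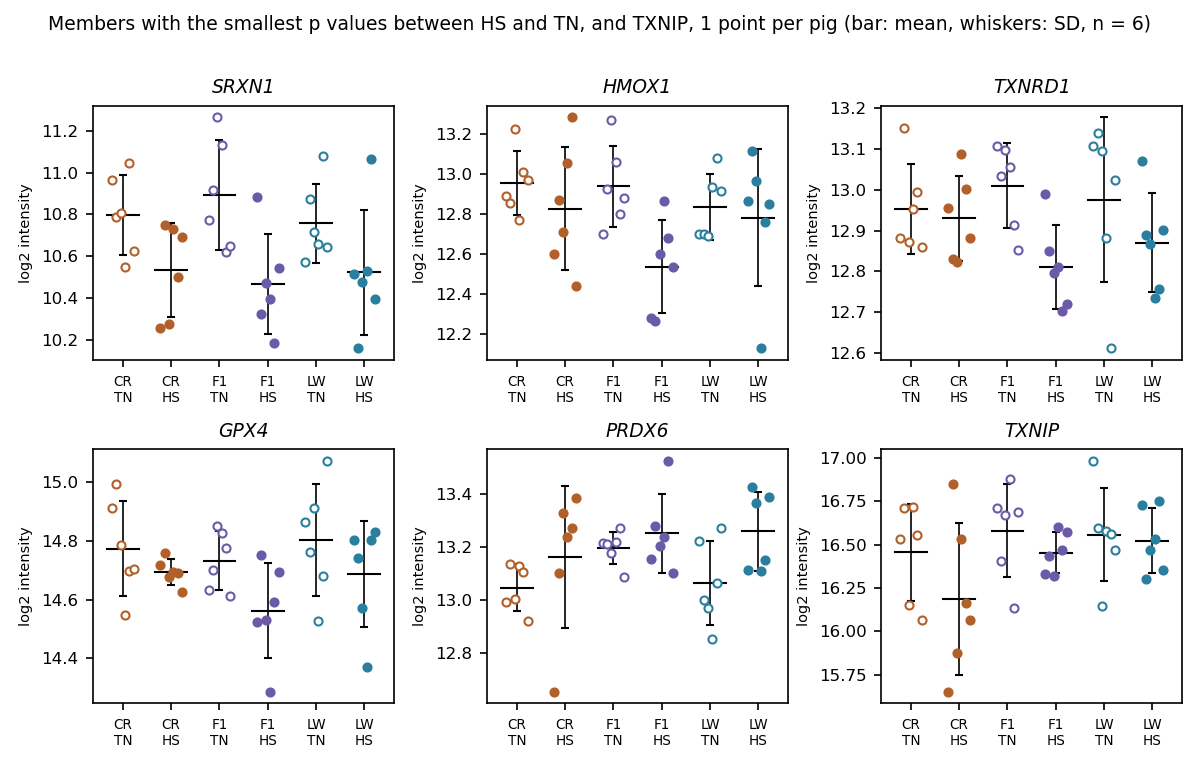
Log2 intensity (y axis) of SRXN1, HMOX1, TXNRD1, GPX4, PRDX6 and TXNIP, 1 point per pig in each of the 6 groups (open points TN, filled HS), with mean and SD (n = 6). The mean of SRXN1 is lower at HS in all 3 breeds, with overlap between the pigs. For HMOX1 and TXNRD1, 5 of 6 cross HS pigs lie below every cross TN pig.

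Extracellular SOD3 stood at 0.19 (adjusted p = 0.395), mitochondrial TXNRD2 at 0.08 (adjusted p = 0.435) and GSTA4, which conjugates products of lipid peroxidation, at -0.10 (adjusted p = 0.508). NFE2L2 (0.09), KEAP1 (0.08), SOD1 (-0.01), SOD2 (0.08), CAT (-0.03), TXN (-0.02), GSR (0.00) and MT1A (-0.03) had adjusted p of 0.385 or more. For SOD1 the 95% interval of the heat difference was -0.09 to 0.08 and for CAT -0.15 to 0.09. By role, 1 of 8 members of the thioredoxin system was called, and 0 members of the other roles. The median log2 differences by role lay between -0.05 (thioredoxin system) and 0.08 (superoxide dismutases).

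The summed medulla signal was 19.06 to 19.66 at TN and 19.03 to 19.61 at HS, and 0 of 7 medulla and 0 of 6 adipocyte genes passed the test of HS against TN. The estimates of all 7 medulla genes were below 0, from -0.35 (PNMT, adjusted p = 0.0797) to -0.03 (CHGA, adjusted p = 0.84), with a median of -0.21. With both levels in the fit, SRXN1 stood at -0.36 (adjusted p = 0.027). Of 9 tested cortex genes NR5A1 alone passed, at -0.25, and of 3 neutrophil genes S100A8 alone, at -0.71, both lower at HS. The list medians were -0.05 and -0.53, and 0.886% of all probes tested passed. The part of NR5A1 and S100A8 in the SRXN1 difference was not tested.

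The response to heat was then compared between breeds. The interaction called 0 of 50 members and 0% of all probes, and at an unadjusted p under 0.05 it took 0 members, beside 4.21%. Within Creole, 0 members were called (background 0%), with 0 at an unadjusted p under 0.05 (background 4.80%). Within Large White, 0 members were called (background 0.0109%), with 1 at an unadjusted p under 0.05 (background 6.27%). Within the cross, 0 members were called (background 0%), with 3 at an unadjusted p under 0.05 (background 12.2%): SRXN1, TXNRD1 (-0.20, adjusted p = 0.278) and HMOX1 (-0.40 ± 0.14, adjusted p = 0.218).

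Other genes of the same pathways were described from 5 lists of 83 genes, of which 67 were tested. Between HS and TN 0 of 67 were called. Between Large White and Creole 10 of 67 were, 3 higher and 7 lower, and the F test over breeds called 13, beside the 11.3% and 10.4% of all probes given above. The lower ones were BLVRA, biliverdin reductase, at -0.79 ± 0.14, the selenium carrier SELENOP at -0.58 ± 0.09, MAOA at -0.38, EPHX1 at -0.33, and the NADPH-supplying or linked enzymes ME1, TALDO1 and PGD at -0.30, -0.29 and -0.18. The higher ones were UCP2 at 0.48, CYBA, a subunit of the superoxide-producing NADPH oxidase, at 0.36, and MAOB at 0.27.

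Within groups of 6 pigs the SD of the members ran from 0.089 (PRDX5) to 1.14 (MT1A) on the log2 scale, with a median of 0.172 against 0.177 over all probes. After MT1A the widest were GSTA1 (0.901), MGST2 (0.743), GSTP1 (0.537) and GLRX (0.496). Between 42436 and 48060 probes were well above background per array, over 5 slides.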

How the data were processed

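The authors labelled total RNA of each gland with Cy3 and read the spots with Agilent Feature Extraction 10.10.1.1. Each deposited scanner file gives the intensity of 1 pig's array before any normalization between arrays. The authors' deposited table gives log2 values of 45348 probes after quantile normalization. It served to choose 1 probe per gene and as an alternative, and 0 of its columns belonged to other samples. From the scanner files, median intensities without control and outlier spots were quantile normalized and taken to log2. The log2 values of spots of the same probe were then averaged. Probes well above background on at least 9 of 18 TN or 9 of 18 HS arrays were tested (45943) with limma 3.58.1 in R 4.3.3 (lmFit, eBayes), with breed and temperature in the fit and Benjamini-Hochberg adjustment over all probes tested at 0.05. Within-breed and interaction tests used 6 group means. Levels are log2 intensity and are not comparable between probes.

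The members and lists were chosen with earlier results of these data known. Probes were named by the deposited gene name, else by RefSeq transcript (GCLM, GPX8, GSTA1, HMOX1, SRXN1). Full values went to members past the threshold and to up to 10 with the smallest p. Pen, day of slaughter, father and mother, random effects in the study's model, are not in the labels. Alternatives were the processed signal, normexp with an offset of 50, the authors' table, no filter, slides and pigs left out, other probes, and marker levels. The scripts were tested on simulated data. Precision is limited by the number of arrays.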

Additional observations from a re-analysis of the deposited data

Results flagged for a closer look

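In 300 groups of 6 pigs (50 members by 6 groups), the gap of the highest or lowest pig to the next, as a share of the group's range, passed the 95% critical value of Dixon's test in 18 groups. Chance alone takes about 1 in 20 groups, and 6% were taken here. No pig was taken for more than 2 members.

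The widest gaps were GPX2 in Creole TN, lowest pig (0.864), GLRX in Creole TN, highest pig (0.839), and MGST2 in Large White TN, highest pig (0.835). The chosen GPX2 probe lies on the opposite strand to the other GPX2 probe, over a run of 19 bases. Which of the 2 reads the GPX2 transcript was not tested. The lowest pig stood alone for GCLC in Large White TN (0.759), GCLM in Creole HS (0.68), GLRX2 in F1 TN (0.699), GPX1 in Creole TN (0.649), HMOX1 in Large White HS (0.64), HMOX2 in Large White TN (0.779), MGST2 in Creole TN (0.696), PRDX2 in Large White HS (0.699) and TN (0.645), and PRDX4 in Large White HS (0.777) and F1 TN (0.629). The highest pig stood alone for GLRX in F1 TN (0.628), GLRX2 in Creole TN (0.762), GSTK1 in Large White TN (0.668) and HMOX2 in Creole TN (0.744).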

How the results depend on the processing

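The HS against TN count of 1 member (SRXN1) went to 0 with the processed signal minus its 75th percentile (SRXN1 adjusted p = 0.0513), with no filter (0.0525), without each of slides 1 to 5 (0.0625, 0.193, 0.223, 0.0999 and 0.0542), with the mean of all probes of a gene (0.0762) and with the second-brightest probe (0.554). Leaving out 1 pig gave 0 to 1, and the SRXN1 difference -0.34 to -0.28. The pigs whose absence lost the call were replicates 1, 3 and 5 of Creole HS and of Creole TN, 2 to 6 of F1 HS, 2, 3 and 4 of F1 TN, 2, 3, 4 and 6 of Large White HS, and 2 and 5 of Large White TN. The breed F test gave 8 to 10 members without 1 pig and 4 with the marker levels in the fit, and Large White against Creole 7 to 9 and 2. SOD2 lost its call without any of 15 pigs (replicates 1 to 4 of Creole HS and of Creole TN, 2 and 6 of Large White HS, 2 to 6 of Large White TN), without slide 2 (0.212) or 3 (0.292) and with the mean of its probes (0.0757). With the second-brightest probe SOD2 turned to -0.22, and for the cross against its parents to 0.023. With the mean of its probes MT1A stood at 1.32 between Large White and Creole. NQO1 lost its call without slides 3, 4 or 5 (0.065, 0.182 and 0.0944), and MSRB2 without slide 2 (0.0565). MGST1 gained one in 8 settings: without Creole HS replicate 4 or 6 or Large White HS replicate 4 (adjusted p 0.0455, 0.017 and 0.0212), without slide 4 or 5 (0.0288 and 0.0298), with the processed signal (0.022), the mean of its probes (0.00668) and the second-brightest probe (0.0239), and GPX1 without Creole HS replicate 5 (0.0467). The other comparisons, with 0 members called, gave 0 to 0 without 1 pig. With the slide as a block, HS against TN, the F test and the contrast gave 1, 8 and 8. The cause of these changes was not tested. By the study's methods littermates were split over TN and HS, but litter is not in the labels, so no fit could pair or block them. The replicate numbers follow the order of the samples and give no pairing.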

Other observations

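The second probe of GSTA1, an alpha-class glutathione transferase, read 7.73 in 1 Large White TN pig against a group median of 16.99 and a lowest value of 14.46 in Large White HS, 15.06 in the cross and 15.36 in Creole. The brightest GSTA1 probe had its lowest value in the same group, at 15.05 against a median of 17.87. The second probe was picked out after its values were seen, and no test was made.

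The third MT1A probe, which read at most 6.63 in Large White and 6.51 in the cross, reached 9.41 in Creole. It was picked out after its values were seen too.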
